A study of Danio rerio with 6 samples.

Results

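The genes described here are 9 transcription factor genes of mesenchyme, the loose connective tissue from which bone and cartilage form: the homeobox genes prrx1a, prrx1b and alx4a, the basic helix-loop-helix genes twist1a, twist1b, twist2, twist3 and tcf15, and the early B-cell factor gene ebf1a. They were taken by symbol from a table of 30841 gene symbols, and for each symbol the transcript with the most reads over all libraries was kept. RNA had been sequenced from 6 libraries of sorted cells of the adult zebrafish caudal fin at 14 days post amputation, 2 libraries for each of 3 groups. The stated question of the series was the lineage relation of mesenchymal cells and osteoblasts.

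The groups are chondrogenic mesenchymal progenitors (CMP), sorted as EGFP+/sp7-, osteogenic mesenchymal progenitors (OMP), sorted as EGFP+/sp7+, and osteoblasts, sorted as EGFP-/sp7+, as the sample titles give them. All fish were of a strain derived from Tubingen and carried the same transgenes in every group. These were sox9a:Cre-ERt2, a Cre that sox9a regulatory sequence drives and tamoxifen activates, linked to a cryaa:EGFP marker. The second was the reporter Ola.Actb:loxp-TagBFP-loxp-EGFP, which turns from TagBFP to EGFP after recombination, and the third was Ola.Sp7:mCherry, which marks cells that use the promoter of the osteoblast factor sp7. Whether the replicates of a group are different fish is not stated in the labels; p-values therefore measure the spread between these libraries, which may be technical.

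Prrx1 is a homeodomain protein that marks limb bud and fibroblast mesenchyme in mammals. Twist proteins bind DNA as dimers with the widely expressed E proteins, and Id proteins hold E proteins away from such dimers. In mouse, Twist1 and Twist2 bind Runx2 and hold back its activity in bone precursors until they mature. Ebf1 is a zinc-binding transcription factor named for its role in B cells and is also used in mesenchymal and fat cell lineages of mammals.

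The libraries held from 3915569 to 5281896 reads with 1 transcript per gene, and these lowest and highest totals were osteoblast replicate 1 and OMP replicate 2. Heat shock genes, a sign of cell stress, took more of the reads in replicate 1 of each group (14.4% to 17.5% over 7 genes) than in replicate 2 (6.43% to 9.64%). The reads of the reporters went against 2 of the sorts: mCherry had 6 and 62 reads in OMP, near the 3 and 47 reads of CMP, against 2455 and 8136 in osteoblasts, and EGFP stood at 796 and 950 CPM (reads scaled to library size) in the osteoblasts, beside 803 to 1115 CPM in the groups sorted as EGFP+. The number of members called is also given from fits without the third group. Those fits compare the same labelled libraries, so they cannot settle whether the labels hold. Osteoblast markers followed the order of the labels. Their summed level over 8 genes was 843 to 952 CPM for CMP, 4211 to 5363 for OMP and 183024 to 228210 for osteoblasts. In osteoblasts that sum was mostly bglap, col10a1a and col10a1b (means of 58346, 45704 and 92317 CPM). In OMP these 3 genes had means of 1272, 693 and 1749 CPM. The group means of each of the 8 genes followed the same order. In OMP against CMP 5 of the 8 were called higher, beside 0.955% of all tested genes. Entpd5a, phex and runx2b were not (edgeR adjusted p = 0.149, 0.282 and 0.369), though entpd5a was with the replicate block (0.00560). In both osteoblast comparisons all 8 were called higher, beside 3.22% and 4.55% of all tested genes. Of these 8, sp7 is no independent sign, since the Ola.Sp7 promoter drives the sort reporter. The 10 cartilage markers did not share an order. Sox9a and hapln1a were lower in OMP and in osteoblasts than in CMP (edgeR adjusted p of at most 0.0231). For osteoblasts against CMP, sox9a is not independent of the sort as titled, since its regulatory sequence drives the Cre that turns EGFP on. Col2a1b had means of 443, 1080 and 292 CPM in CMP, OMP and osteoblasts and fell in osteoblasts against OMP (edgeR adjusted p = 0.00596). With the replicate number as a block, edgeR also called it higher in OMP against CMP (adjusted p = 0.00414) and lower in osteoblasts against CMP (0.0410). Sox6 was higher in osteoblasts (15.1 CPM) than in CMP (2.81) and OMP (1.105), with adjusted p of 0.0238 and 0.00625, col2a1a had 0 reads in CMP, and acana, acanb and matn1 were each at 3.68 CPM or less there.

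Read for read, the leading genes were prrx1a and twist1a in every group. Per kilobase of transcript, which allows levels of different genes to be compared, twist1a led in CMP (344 CPM per kb ± 15.4, SD, n = 2) and prrx1a in OMP (336 ± 16.2) and osteoblasts (173 ± 3.35). Both lay above at least 95% of all tested genes on this scale in each group. Twist2 and twist3 followed at 39.5 ± 7.18 and 36.6 ± 8.40 CPM per kb in CMP, and the other genes were lower. The per-length level of twist1b depends on its transcript, since the kept row of 1978 bases and another of 1215 bases held nearly the same reads (743 and 738 in all). No read of tcf15, the paraxis gene of somites, was found in any library, which allows a level of up to 0.478 to 0.982 CPM, depending on the library, at a floor of 3 reads per library on the same TMM scale. It was not tested, and the other 8 genes passed the filter on low counts.

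**Figure D1:**
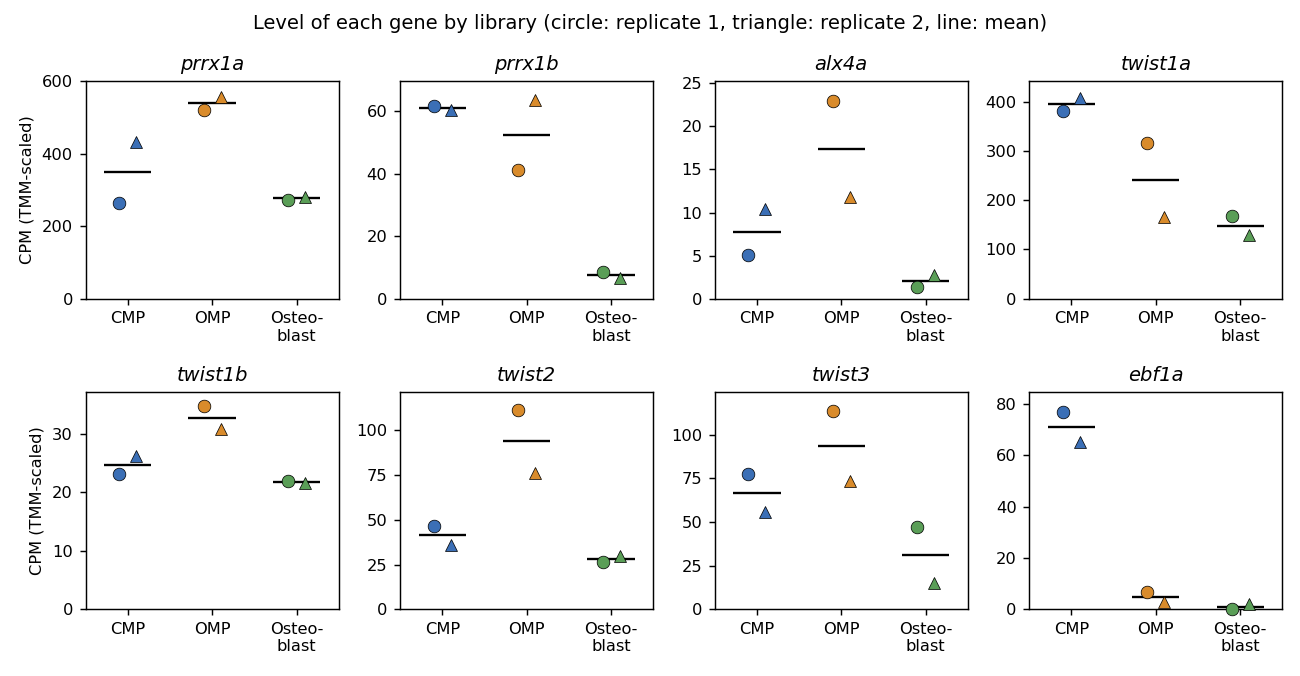
TMM-scaled CPM (vertical axes, linear from 0) of the 8 detected genes in each of the 6 libraries (circle replicate 1, triangle replicate 2, line group mean of 2 libraries). Prrx1b, alx4a and ebf1a are low in both osteoblast libraries, at 8.51 CPM or less, while prrx1a stays at 273 CPM or more there.

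Across 13399 tested genes, edgeR's quasi-likelihood test (adjusted p under 0.05, Benjamini-Hochberg) called few genes in OMP against CMP, and 1 of the 8 tested members, ebf1a, which was lower. The background there was 1.89% of genes called in either direction, 0.955% higher and 0.933% lower. In osteoblasts against OMP 3 members were lower (prrx1b, alx4a and twist2) and none higher, beside 8.11% of all genes called, 3.22% higher and 4.9% lower. In osteoblasts against CMP 3 were lower (ebf1a, prrx1b and twist1a) and none higher, beside 10.6% called, 4.55% higher and 6.08% lower. Libraries of the groups compared did not overlap in CPM for 6, 7 and 7 of the 8 genes in these comparisons, where 36.1%, 42.8% and 48% of all tested genes did not overlap either. All 7 of each osteoblast comparison were lower in osteoblasts, while those background shares count genes of either direction. With the replicate number as a block, the test gave 1 member higher and 1 lower, 5 lower, and 4 lower, and called 6.1%, 14.2% and 18.1% of all genes. Leaving out 1 library left its group with 1. In some of these fits fewer members were called, and far fewer of all tested genes. The log2 fold change of ebf1a in OMP against CMP ran from -4.73 to -3.36 over them. In osteoblasts against OMP that of prrx1b ran from -3.04 to -2.46, of alx4a from -3.66 to -2.41 and of twist2 from -1.98 to -1.39. With all 6 libraries, the 8 genes had median log2 fold changes of 0.45, -1.67 and -1.26. All tested genes had 0.02, -0.03 and -0.02. The 3 comparisons share libraries and the members were chosen with earlier results known, so these counts are a description. Fits without the third group called 1, 3 and 3 members. The share of all genes called in those fits is not given here, so these counts have no background of their own.

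Prrx1a was abundant in all 3 groups and passed the main test, which leaves out the replicate block, in none of the comparisons. Replicates 1 and 2 stood at 265 and 433 CPM for CMP and at 521 and 558 for OMP, while osteoblasts had 273 and 280. Both OMP libraries were the highest, and the CMP libraries overlapped the osteoblast ones. Its log2 fold change was 0.63 (SE 0.30, edgeR adjusted p = 0.505) in OMP against CMP, -0.33 (SE 0.30, adjusted p = 0.629) in osteoblasts against CMP and -0.96 (SE 0.30, adjusted p = 0.0871) in osteoblasts against OMP. With the replicate number as a block, edgeR's adjusted p for osteoblasts against OMP was 0.00819.

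Its paralog prrx1b was much lower in osteoblasts. The 2 CMP libraries had 61.8 and 60.4 CPM (280 and 361 reads), those of OMP 41.3 and 63.6 CPM (151 and 399 reads), and those of osteoblasts 8.51 and 6.65 CPM (26 and 29 reads). CMP and OMP overlapped, and both lay above osteoblasts. Prrx1b fell in osteoblasts against OMP (log2 fold change -2.81, SE 0.40, edgeR adjusted p = 0.00170) and against CMP (-3.02, SE 0.40, adjusted p = 8.41e-04), and its value in OMP against CMP was -0.21 (SE 0.34, adjusted p = 0.973). Both falls were called in all 15 alternative fits, with adjusted p of at most 0.0201 and 0.00960.

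Of the reads of the prrx1 pair, prrx1b thus took the smallest share in osteoblasts. Prrx1b gave 18.9% (Wilson 95% interval 17.03 to 21.02) and 12.3% (11.1 to 13.5) of prrx1 reads in CMP. Its share was 7.35% (6.30 to 8.56) and 10.2% (9.32 to 11.2) in OMP, and 3.02% (2.07 to 4.39) and 2.31% (1.62 to 3.30) in osteoblasts. These intervals cover counting error within each library alone and leave out the spread between libraries. The reads carry no molecular identifiers, so the intervals may be too narrow. The shares of the 3 groups did not overlap, with CMP the highest and osteoblasts the lowest. The gap between CMP and OMP was smaller than the spread within CMP, and no test was run on the shares. Per kilobase, the pair summed to 187 and 292 CPM for CMP and 340 and 371 for OMP, while osteoblasts had 173 and 177.

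Alx4a, a homeobox gene of limb and skull mesenchyme in mammals, was scarce. CMP had 5.08 and 10.4 CPM (23 and 62 reads), OMP had 23.0 and 11.8 (84 and 74 reads) and osteoblasts had 1.31 and 2.75 (4 and 12 reads). The osteoblast libraries were the lowest, and those of CMP lay below those of OMP by less than the spread within OMP. Alx4a fell in osteoblasts against OMP (log2 fold change -2.99, SE 0.68, edgeR adjusted p = 0.0223). That call was lost without OMP replicate 1 (adjusted p = 0.106), osteoblast replicate 1 (0.115) or osteoblast replicate 2 (0.0786). OMP against CMP gave 1.12 (SE 0.54, edgeR adjusted p = 0.528), and osteoblasts against CMP gave -1.87 (SE 0.71, adjusted p = 0.148), neither of them called.

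Among the twist genes, twist1a was highest in CMP and twist2 highest in OMP. The CPM of twist1a was 382 and 407 for CMP and 316 and 167 for OMP, while osteoblasts had 168 and 129. The CMP libraries stood above all others, and OMP overlapped osteoblasts. It fell in osteoblasts against CMP, with a log2 fold change of -1.41 and an SE of 0.34 (edgeR adjusted p = 0.0262). Leaving out CMP replicate 1 or 2 or osteoblast replicate 1 or 2 ended the call, with 1 library left in that group. The log2 fold changes were then -1.45, -1.36, -1.60 and -1.22. With the transcript rows of each gene summed it missed the threshold (edgeR adjusted p = 0.0503). Twist1a has 1 row, so its own counts were unchanged there. The steps from CMP to OMP (-0.71, SE 0.34, edgeR adjusted p = 0.515) and from OMP to osteoblasts (-0.70, SE 0.34, adjusted p = 0.336) were not called.

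Twist2, known in mouse as a factor of dermal and bone precursors, stood at 46.6 and 36.0 CPM for CMP and 111 and 76.2 for OMP, while osteoblasts had 26.2 and 30.02. The 3 groups did not overlap, with OMP the highest. It fell in osteoblasts against OMP (log2 fold change -1.73, SE 0.35, edgeR adjusted p = 0.0124), a call that was lost without OMP replicate 1 (adjusted p = 0.0933), osteoblast replicate 1 (0.0875) or osteoblast replicate 2 (0.0730). In OMP against CMP its fold change of 1.18 (SE 0.34) missed the threshold (edgeR adjusted p = 0.138) and passed it with the replicate block (adjusted p = 0.0160). Within replicates 1 and 2 the difference in log2 CPM, with a prior count of 2, was 1.25 and 1.07. Between osteoblasts and CMP it was not called (-0.55, SE 0.35, edgeR adjusted p = 0.445).

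Twist3, a further member of the family in fish, varied widely in osteoblasts. The CMP libraries had 77.3 and 55.7 CPM, those of OMP 114 and 73.5, and those of osteoblasts 47.4 and 14.9. CMP and OMP overlapped, and both osteoblast libraries were the lowest. Its fold changes were -1.60 (SE 0.50, edgeR adjusted p = 0.0911) in osteoblasts against OMP and -1.11 (SE 0.50, adjusted p = 0.241) against CMP. Both passed with the replicate block (edgeR adjusted p = 0.00298 and 0.0153) and without osteoblast replicate 1 (0.0133 and 0.0278). In OMP against CMP the value was 0.49 (SE 0.48, adjusted p = 0.910).

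Twist1b differed little between the groups. CMP had 23.2 and 26.3 CPM, OMP 34.7 and 30.8, and osteoblasts 21.9 and 21.5. The OMP libraries were the highest, by a narrow margin. Its log2 fold changes lay between -0.59 and 0.40, with SE of 0.34 to 0.35, and none was called in any of the 15 alternatives of any comparison.

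**Figure D2:**
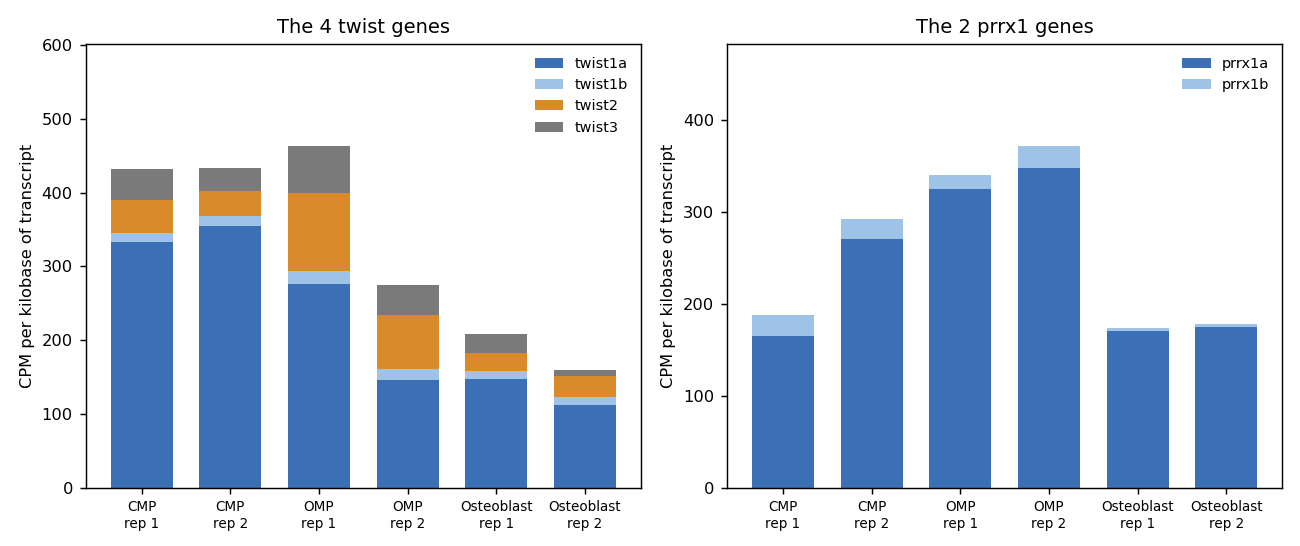
Stacked levels (CPM per kilobase of the kept transcript, linear from 0) of the 4 twist genes and the 2 prrx1 genes in each library. Twist1a fills 77.1% and 81.9% of the twist level in CMP and 59.7% and 53.1% in OMP, and prrx1b is a thin band in osteoblasts.

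Taken per kilobase, the 4 twist genes summed to 432 and 434 CPM for CMP and 463 and 274 for OMP, while osteoblasts had 209 and 160, so OMP and CMP overlapped and osteoblasts were lowest. Within the twist genes, the share of twist2 was highest in OMP. Twist2 gave 8.81% (Wilson 95% interval 7.74 to 10.01) and 6.86% (6.02 to 7.79) of twist reads in CMP. In OMP it gave 19.3% (17.7 to 21.1) and 21.9% (20.3 to 23.7), and in osteoblasts 9.93% (8.05 to 12.2) and 15.4% (13.1 to 17.97). The ratio of twist1a to twist2, per length, was 7.49 and 10.3 for CMP and 2.59 and 1.999 for OMP, while osteoblasts had 5.87 and 3.91. OMP held the lowest ratios and CMP the highest, without overlap and without a test.

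Ebf1a changed most among the genes described. CMP had 76.8 and 65.1 CPM (348 and 389 reads), OMP had 6.84 and 2.71 (25 and 17 reads), and osteoblasts had 0 and 2.06 (0 and 9 reads). CMP stood far above the others, and the OMP libraries were slightly above those of osteoblasts. Its log2 fold change in OMP against CMP was -3.97 (SE 0.61, edgeR adjusted p = 0.0109). Leaving out CMP replicate 1 or CMP replicate 2 ended the call, with 1 CMP library left and log2 fold changes of -3.83 and -4.08. The call was also lost with the transcript rows of each gene summed (edgeR adjusted p = 0.0565). Ebf1a has 6 rows that hold nearly the same reads (787 or 788 in each), so that sum counts them repeatedly. It was also lower in osteoblasts than in CMP (-5.87, SE 0.74, edgeR adjusted p = 5.85e-04), a call that held in all 15 alternatives (adjusted p of at most 0.00483). Without osteoblast replicate 2, the sole osteoblast library with reads of the gene, that fold change was -11.4, a value fitted against a library at 0. Between osteoblasts and OMP the value of -1.90 (SE 0.88, adjusted p = 0.299) rests on few reads and was not called. Of B cell markers, pax5 had 0 reads in all 6 libraries and cd79a at most 3.3 CPM.

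**Figure D3:**
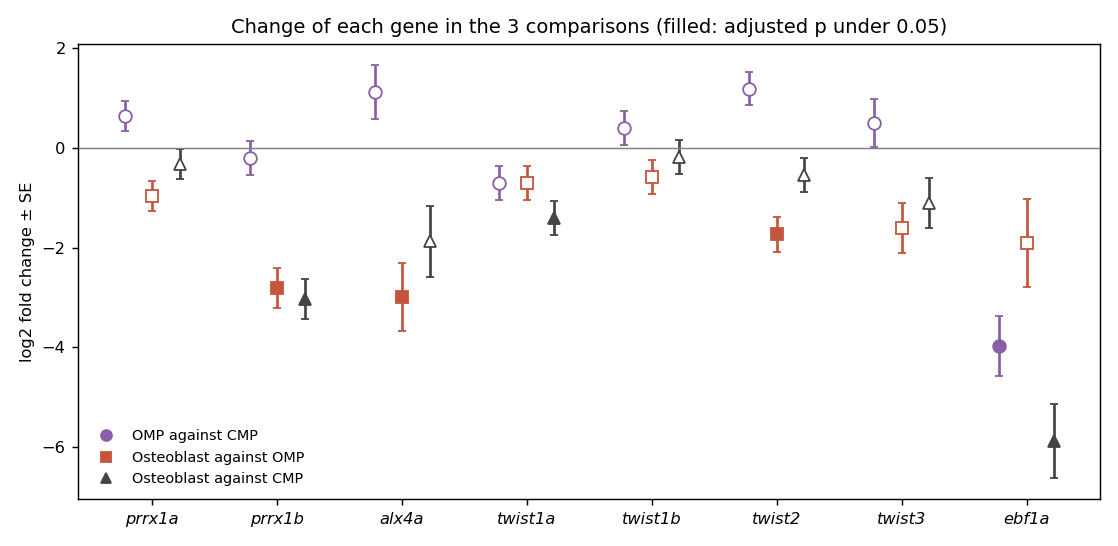
Log2 fold change with its SE (vertical axis) of 8 genes in OMP against CMP (circles), osteoblasts against OMP (squares) and osteoblasts against CMP (triangles), filled where edgeR's adjusted p was under 0.05. The filled points are all below 0, and ebf1a holds the lowest, at -5.87.

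Mural cell and fin mesenchyme markers were also lower in osteoblasts. The summed level of 7 mural cell genes was 387 to 479 CPM for CMP, 172 to 265 for OMP and 52.9 to 117 for osteoblasts, with 1, 2 and 4 of 6 tested genes lower in OMP against CMP, osteoblasts against OMP and osteoblasts against CMP. That of 8 epidermal genes was 7110 to 7813, 4601 to 5167 and 2861 to 3024 CPM. Krt4 alone, at means of 5925, 3235 and 1016 CPM, was called. Without the block it was lower in both osteoblast comparisons (edgeR adjusted p = 0.00358 and 2.74e-04). The other 7 epidermal genes were not called, and krt8, the next most abundant, had means of 1337, 1386 and 1605 CPM. The 11 fin mesenchyme markers summed to 4311 to 5195, 1277 to 1470 and 610 to 757 CPM, with 3, 5 and 8 of 10 tested lower and none higher, tnc among the list. Within that list and1 alone had means of 2281, 287 and 10.7 CPM in CMP, OMP and osteoblasts, while hoxa13b was level at 194, 194 and 192. Of all tested genes, 0.933%, 4.9% and 6.08% were called lower. With the replicate block, edgeR also called krt4 (adjusted p = 0.00585), tagln (0.0172), myh11a (0.0228), and1 (0.00113), aldh1a2 (0.0287) and msx3 (0.00260) lower in OMP against CMP. It added notch3 (0.0437) and msx3 (0.0363) as lower in osteoblasts against OMP, and pdgfrb (0.0458) and msx1b (0.00984) against CMP. The part of these cells in the results was not tested. Markers of muscle (at most 3.01 CPM in sum), nerve and glia (12.2), pigment cells (6.02), erythrocytes (7.97), leukocytes (13.03) and endothelium (46.5) were low in every library, and cdh5, tie1, actc1b, myog, mpeg1.1, elavl3 and tyr had 0 reads. In bulk RNA, fewer cells that express a gene and less RNA of it per cell cannot be told apart.

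Genes listed here as relatives, by homeobox, helix-loop-helix or Ebf family and not by closeness, were mostly silent or rare. Of 20 listed relatives 19 were in the table and 6 passed the filter. Alx1, shox2, uncx4.1 and msc had 0 reads in every library, and alx4b had at most 0.319 CPM. Ebf3a, a paralog of ebf1a, had 60 and 72 reads for CMP and 2 and 9 for OMP, while osteoblasts had 5 and 0. It fell in osteoblasts against CMP (-4.14 on the log2 scale, SE 0.92, edgeR adjusted p = 0.0141), and its value in OMP against CMP was -3.51 (adjusted p = 0.0537, and 0.0143 with the replicate block). Leaving out CMP replicate 1, CMP replicate 2 or osteoblast replicate 2 ended the osteoblast call, with adjusted p of up to 0.110. Other relatives went the opposite way: the homeobox gene meox2a (11.4 CPM ± 4.52 in CMP and 64.6 ± 3.91 in osteoblasts, 2.49, edgeR adjusted p = 0.00254) and the tendon factor gene scxa (20.3 ± 9.07 and 108 ± 12.1, 2.42, adjusted p = 0.00270) rose in osteoblasts against CMP in all 6 fits that left out a library. Scxb, with 2 and 2 reads for CMP and 23 and 27 for OMP, rose in OMP against CMP (3.67, SE 0.80, edgeR adjusted p = 0.0446), a call that was lost without any of the 6 libraries (adjusted p of up to 0.385). With the replicate block, edgeR also called meox2a and scxa higher in OMP against CMP (adjusted p = 0.0387 and 0.00368) and in osteoblasts against OMP (0.0260 and 0.0275).

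Of the genes whose products pair with Twist proteins or block such pairs, 8 of 9 were tested. The E protein gene tcf12 had the highest mean CPM of the list, though not per kilobase, where id1 stood above it in each group (257, 177 and 126 against 59.0, 130.2 and 44.7 CPM per kb for CMP, OMP and osteoblasts). It followed the order seen for twist2, with 292 CPM ± 39.1 (SD, n = 2) for CMP, 644 ± 15.01 for OMP and 221 ± 39.5 for osteoblasts. It fell in osteoblasts against OMP (log2 fold change -1.54, SE 0.28, edgeR adjusted p = 0.00636), as did the E protein gene tcf4 (-1.65, SE 0.39, adjusted p = 0.0273), while the inhibitor gene id2b rose (1.18, SE 0.29, adjusted p = 0.0345). The call of tcf12 was lost without osteoblast replicate 2 (adjusted p = 0.0867). Those of tcf4 and id2b were lost in 5 and in 6 of 6 fits that left out a library (up to 0.191 and 0.237). In osteoblasts against CMP id1 fell (-1.03, SE 0.29, edgeR adjusted p = 0.0499) and lost its call without any library (up to 0.293). None of the list was called in OMP against CMP, with tcf12 at 1.14 (adjusted p = 0.0733, and 0.00248 with the replicate block). The block also called id3 higher in osteoblasts against OMP (edgeR adjusted p = 0.0443) and id2b higher in osteoblasts against CMP (0.00376).

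Zinc finger factors of epithelial to mesenchymal transition, of which 6 of 8 were tested, held 2 calls, both in osteoblasts against CMP. With the replicate block, edgeR also called snai2 lower (adjusted p = 8.84e-04) and zeb2a higher (0.0374) in OMP against CMP, and snai2 lower (0.0107) and snai1b higher (0.00864) in osteoblasts against OMP. Snai2 fell (282 CPM ± 52.7 for CMP, 103 ± 24.4 for OMP and 57.4 ± 13.1 for osteoblasts, log2 fold change -2.29, SE 0.33, edgeR adjusted p = 0.00144), a call that held in all 6 fits without a library. Zeb2a rose (6.55 CPM ± 0.204 for CMP, 17.8 ± 0.679 for OMP and 33.9 ± 10.4 for osteoblasts, 2.36, SE 0.42, adjusted p = 0.00481) and lost its call without CMP replicate 2 (0.0523).

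Factors of limb and fin mesenchyme went both ways, with 19 of 31 tested. In OMP against CMP 2 rose, foxd1 (8.54 CPM ± 0.723 in CMP and 76.0 ± 24.8 in OMP, log2 fold change 3.15, edgeR adjusted p = 0.00789) and tbx18 (1.45, adjusted p = 0.0452). Foxd1 was not called without CMP replicate 1 or CMP replicate 2 (adjusted p of up to 0.100), and tbx18 without any library (up to 0.354). In osteoblasts against OMP tbx2b (2.93, edgeR adjusted p = 0.00567) and foxl1 rose, the latter with 33 reads against 2, 22.1 times as many per library size, with 5.65 to 189.9 from counting error. The odd-skipped genes osr1 (164 CPM ± 52.5 in OMP and 9.77 ± 3.77 in osteoblasts, -4.09, edgeR adjusted p = 3.07e-04) and osr2 (-3.95, adjusted p = 0.0329) fell. Osr1 was called in all 6 fits without a library. Osr2 lost its call in 3 of them (up to 0.205), tbx2b without OMP replicate 2 (0.0525) and foxl1 in 4 of them (up to 0.187), and without osteoblast replicate 2 foxl1 did not pass the filter and was not tested. Against CMP, osteoblasts had foxd1 (2.15), foxl1 (33 reads against 1, 46.7 times as many, with 7.82 to 1900 from counting error), tbx18 (1.296) and tbx2b (2.84) higher and osr1 (-3.15) lower, with edgeR adjusted p from 9.20e-04 to 0.0221. The call of osr1 held in all 6 fits that left out a library there too, and the other 4 were lost in 1 to 4 of them, with adjusted p of up to 0.196, foxl1 again being untested without osteoblast replicate 2. The replicate block added pbx3b (0.0337) and tbx15 (0.0291) as higher in OMP against CMP, foxd1 (0.0167) as lower in osteoblasts against OMP, and pbx1a (0.0306) and tbx15 (0.0351) as higher in osteoblasts against CMP, all by edgeR's adjusted p.

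Genes tied in mammals to Twist1 or Prrx1, as partners, targets or opponents, were all measured, 17 of 17. The bone factor gene runx2b rose from 38.9 CPM ± 2.07 in CMP and 65.0 ± 10.3 in OMP to 229 ± 21.6 in osteoblasts, as judged against OMP (log2 fold change 1.82, SE 0.29, edgeR adjusted p = 0.00367) and CMP (2.55, SE 0.30, adjusted p = 4.42e-04). Sp7 rose in all 3 comparisons but is no independent result, since the Ola.Sp7 promoter drives the sort reporter. The reporter gene mCherry was itself not called in OMP against CMP (log2 fold change 0.47, edgeR adjusted p = 0.979). Bmp2b and fgfr3 rose in both osteoblast comparisons. The matrix gene tnc, a Prrx1 target in mammals, had 89.5 CPM ± 18.7 for CMP, 84.2 ± 0.333 for OMP and 12.2 ± 1.53 for osteoblasts. It fell against OMP (-2.78, SE 0.35, edgeR adjusted p = 8.54e-04) and against CMP (-2.86, SE 0.35, adjusted p = 5.03e-04) in all 6 fits without a library. Of the periostin genes, postna fell to 10.01 CPM ± 0.744 in osteoblasts from 358 ± 84.6 in OMP (-5.15, edgeR adjusted p = 4.48e-05) and 600.1 ± 174 in CMP (-5.90, adjusted p = 1.75e-05). Postnb peaked in OMP at 7833 ± 2177 CPM, higher than in CMP (2.504, edgeR adjusted p = 0.00512) and than in osteoblasts (-3.73 in osteoblasts, adjusted p = 8.72e-05).

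Fgfr2 fell in OMP against CMP (-1.75, SE 0.32, edgeR adjusted p = 0.0232) and in osteoblasts against CMP (-1.88, SE 0.32, adjusted p = 0.00395), and cdh11, a cadherin of mesenchyme and bone, rose (2.94 and 3.93, adjusted p = 0.00366 and 5.18e-05). In osteoblasts against CMP cdh2 (-1.87) and postnb (-1.23) were also lower and runx2a (2.22) and fgfr1a (2.17) higher, with edgeR adjusted p from 0.00926 to 0.0209, and each of these 4 calls was lost in 2 or 3 of the 6 fits without a library (up to 0.182). In OMP against CMP the call of sp7 was lost without any library (up to 0.246), that of fgfr2 in 4 fits (up to 0.187, and in osteoblasts against CMP without osteoblast replicate 2, 0.0512), that of postnb without CMP replicate 1 or CMP replicate 2 (up to 0.0703) and that of cdh11 without CMP replicate 2 (0.0540). For genes tied to Twist1 or Prrx1, the replicate block added bmp2b as higher (edgeR adjusted p = 0.0210) and cdh2 (0.00264) and postna (0.0273) as lower in OMP against CMP. In osteoblasts against OMP it added cdh11 (0.00216), fgfr1a (0.0102) and bmp4 (0.0429) as higher and pdgfra (0.0152) and fgfr1b (0.0467) as lower, and in osteoblasts against CMP pdgfrb (0.0458) as lower. Over all 5 lists, 7, 14 and 23 genes were called in OMP against CMP, osteoblasts against OMP and osteoblasts against CMP. Of all 13399 tested genes, 1.89%, 8.11% and 10.6% were called. No list call in OMP against CMP, and only part of those in the other comparisons, held in every fit that left out a library. In some of those fits, with 1 library left in a group, far fewer of all tested genes were called too.

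**Figure D4:**
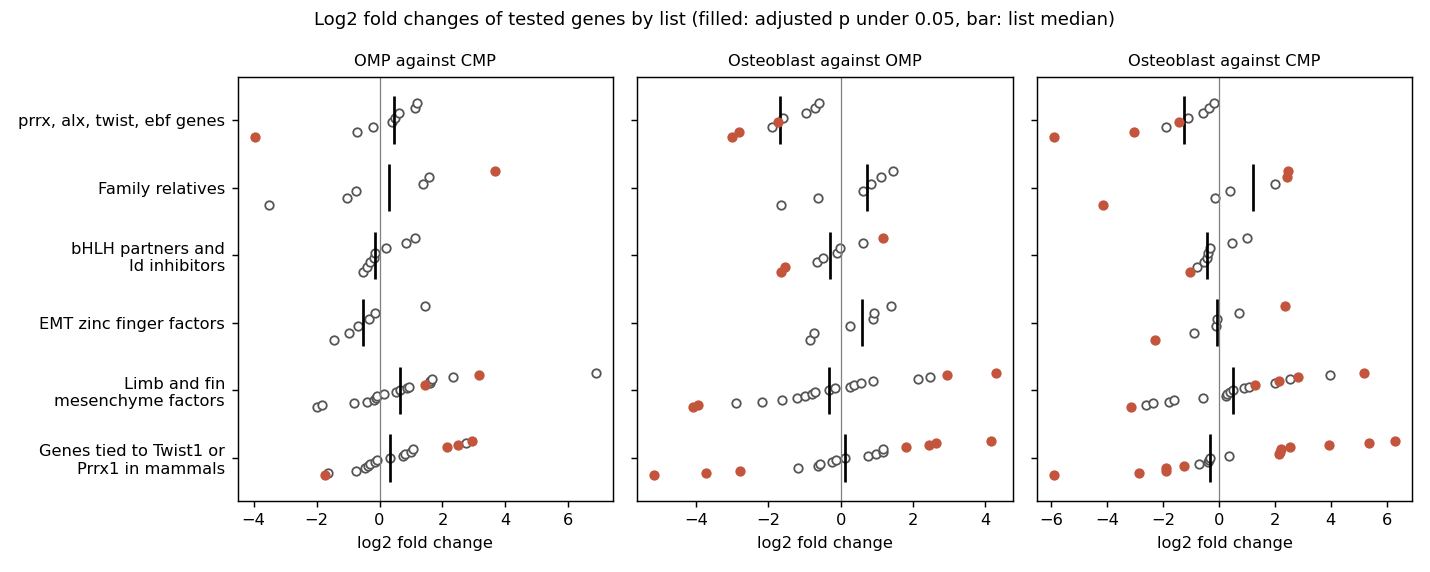
Log2 fold changes (horizontal axes) of the tested genes of each list in the 3 comparisons, 1 point a gene, filled where edgeR's adjusted p was under 0.05, with a bar at the list median. The 8 prrx, alx, twist and ebf genes have their median at -1.67 in osteoblasts against OMP. The 6 tested family relatives, none of them called there and several with few reads, have theirs at 0.74.

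In list medians, family relatives stood at 0.31, 0.74 and 1.21 in OMP against CMP, osteoblasts against OMP and osteoblasts against CMP, and dimer partners and Id genes at -0.15, -0.30 and -0.42. The medians of the relatives rest on 6 genes, several with few reads. Ebf1b had 8 and 5 reads in OMP and 2 and 14 in osteoblasts, and uncx had 2 and 6 and 11 and 5. In osteoblasts against OMP the 6 ran from -1.66 (scxb) to 1.44 (uncx). The zinc finger factors had medians of -0.51, 0.58 and -0.08, the limb and fin factors of 0.64, -0.33 and 0.51, and the genes tied to Twist1 or Prrx1 of 0.32, 0.11 and -0.32. All tested genes had medians within 0.03 of 0.

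The genes nearest in pattern were found by the mean absolute difference of log2 CPM over the 6 libraries, each gene centred on its own mean. Candidates were the 4743 genes whose log2 CPM averaged 4 or more, without members, reporter genes and genes with clone or locus names. For prrx1a the nearest were arhgdia and lpar2a (0.10 and 0.11), and for prrx1b rgs5b and the lumican gene lum (0.17 and 0.21). Alx4a had fah, an enzyme gene of tyrosine breakdown, and ntd5 (0.33 and 0.36). Nearest to twist1a were the ephrin receptor gene ephb3a and grk4 (0.09 and 0.11), to twist1b nudc and pdia4 (0.08 and 0.09), to twist2 the fibrillar collagen gene col11a1a and ezh1 (0.16 and 0.18), and to twist3 phactr2 and acap3a (0.11 and 0.15). Ebf1a lay furthest from its nearest genes, pdlim5a and bnc2, at 0.66 and 0.74. Such distances grow with the size of a gene's own changes. The median distance to all 4743 genes was 2.27 for ebf1a, 1.14 for alx4a and 0.39 for twist1b. Pdlim5a had means of 192, 24.8 and 6.33 CPM in CMP, OMP and osteoblasts, and bnc2 had 154, 25.6 and 2.18. Among the members themselves, prrx1a and twist1b were closest (0.22), and the prrx1 pair lay 0.98 apart. The points share their libraries, so this likeness describes these 6 samples.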

How the data were processed

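RNA was measured in 6 libraries, 2 each of CMP, OMP and osteoblasts, grouped by the sample titles. Per the submitters' processing notes, HISAT2 2.2.1, featureCounts 2.0.3 and build GRCz11 were used. Settings for strand and multi-mapping reads are not given in the sources used here; overlapping or antisense genes and near-identical paralogs are thus uncertain. The authors deposited raw counts for 75811 transcript rows, with RPKM and TPM values scaled by them per transcript length and library; the RPKM and TPM served here only as an alternative scale. The lengths of the transcripts, in bases, are likewise the authors' deposited values. Of 6 transgene rows, 2 had empty cells in every replicate 1 library and were dropped. The row with the most reads stood for its gene. All 9 members matched a RefSeq table of assembly GRCz12tu by accession, which was used for names alone: it lists Twist1b as an older name of twist1a, Twist1a of twist1b and twist2 of twist3. No sequence or coordinate is given.

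The main test of the counts used edgeR 4.0.16 under R 4.3.3 (TMM, filterByExpr, bias-adjusted quasi-likelihood fit on group alone, 3 residual degrees of freedom, two-sided, Benjamini-Hochberg over 13399 genes, threshold 0.05), and with DESeq2 1.42.0 as an alternative. The bias-adjusted fit was chosen over the earlier estimator after both had been seen. Each SE is the size of the log2 fold change over the root of its F statistic. CPM and the floor of 3 reads are TMM-scaled, with SD over 2 libraries. The fit was also run on simulated data, with changes set in randomly chosen genes for OMP against CMP. The outcome is not given here, so that run says nothing on the genes not called. Deviations of same-numbered libraries from their group means correlated at 0.30 to 0.38 between groups, over genes. The replicate numbers were therefore used as a block in an alternative fit, though the labels do not say what a number marks. The main fit leaves out this pairing, so its calls and the blocked ones differ. The blocked value is given where it changes a call of a member or of a gene in the lists of related genes. For markers it is given for some genes only. The members and lists were chosen with earlier results of these data known. The text names all members, each list gene that was called, with or without the block, and the 2 genes nearest in pattern to each member. Other genes named are markers or relatives with few or no reads, chosen after their values were seen. Lists were family relatives, dimer partners and Id genes, zinc finger factors, limb and fin factors, and genes tied to Twist1 or Prrx1, with markers of osteoblasts, cartilage, fin mesenchyme, epidermis, leukocytes, endothelium, mural cells, muscle, nerve and glia, pigment cells and erythrocytes.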

Additional observations from a re-analysis of the deposited data

How the results depend on the processing

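Leaving out 1 library at a time gave 0 to 1, 1 to 3 and 2 to 3 members called in OMP against CMP, osteoblasts against OMP and osteoblasts against CMP, and 0 to 7, 9 to 12 and 13 to 22 related genes. The fold change of prrx1b in OMP against CMP then ran from -0.56 to 0.028, and that of prrx1a in osteoblasts against CMP from -0.64 to 0.068, so both changed sign, without a call. The replicate block called 2, 5 and 4 members in OMP against CMP, osteoblasts against OMP and osteoblasts against CMP. It called 18 and 25 related genes in the first and second. Over all genes it called 817, 1903 and 2421 in the 3 comparisons, against 253, 1087 and 1424 without it. The member calls the block added were those of twist2 in the first comparison, prrx1a and twist3 in the second and twist3 in the third, and it ended no call of a member or related gene. Summed transcript rows, which can count reads shared by rows of a gene more than once, gave 0 members and 4 related genes in OMP against CMP. DESeq2 and the fit without a filter each gave 12 related genes there and called 401 and 394 genes in all. DESeq2 (adjusted p = 0.0316) and the fit without a filter (0.0407) also called twist3 in osteoblasts against OMP. Scaling by library totals alone gave 5 members in each osteoblast comparison; it moved the median of all genes by -0.37 and -0.48, and relative to that shift prrx1a and twist3 stood at -0.97 and -1.60 against OMP, and alx4a and twist3 at -1.88 and -1.13 against CMP. On the deposited RPKM and TPM scales, which carry the same kind of shift, the log2 ratio of mean levels in osteoblasts against OMP was -1.19 and -1.33 for prrx1a and -0.80 and -0.95 for twist1b. Against CMP it was -3.41 and -3.47 for prrx1b, -1.82 and -1.87 for twist1a, -0.58 and -0.64 for twist1b, and -0.92 and -0.998 for twist2. The RPKM ratio of twist1b in OMP against CMP was 0.22. Calls over all genes with summed rows and with library totals are not given here, so those counts of members have no background of their own. RLE scaling, the longest transcript row and the earlier quasi-likelihood estimator changed no call of a member. The values of ebf1a in osteoblasts rest on 0 and 9 reads and those of alx4a on 4 and 12, so depth limits their precision most. Power was not measured for these genes in particular.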
